A study of Homo sapiens with 16 samples.

Results

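Lysosomes are the acidic compartments in which cells break down proteins, glycans and lipids, and autophagy is the route that delivers a cell's own material to them. The 41 genes described here encode the hydrolases, membrane proteins and proton pump of the lysosome, the transcription factors TFEB and TFE3, proteins that build the autophagosome, and PLAC8. They were taken by symbol from a list drawn up with earlier results of these data known, in which PLAC8 and MAN2B2 are genes that the study names, so that their counts do not come from a list blind to the data. By what they do they are 10 glycosidases, 2 sulfatases, 8 proteases, 5 genes of lipid handling, 5 membrane proteins and channels, 4 proton pump genes, 2 transcription factors, 4 genes of autophagosome formation, and PLAC8. All 41 were listed at both times, among 18632 symbols at 3 h and 24570 at 6 h, and all 41 passed the filter of a mean of at least 1 TPM (a level per length of the transcript, scaled to one total in every library).

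The libraries came from 16HBE (16HBE14o-), a transformed line of human bronchial epithelial cells. Cells received *D. rotundifolia* 3×, an ethanolic extract of the whole round-leaved sundew taken to the third decimal dilution with shaking, or Ctrl, the same ethanol in water diluted and shaken in the same way, both in medium with a low share of serum. At 3 h and at 6 h there were 4 Ctrl and 4 treated libraries, 16 in all, and the 6 h cultures were an experiment of their own with their own Ctrl. All libraries derive from a single cell line, so replicates are separate cultures and not donors.

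Transcription of many lysosomal genes is driven by TFEB and TFE3, basic helix-loop-helix factors that bind a CLEAR element, a palindrome around the letters CACGTG, in the promoters of their targets. When nutrients are ample, mTORC1 on the lysosomal surface phosphorylates both factors and keeps them out of the nucleus, so that the mRNA level of a factor and its activity need not go together. ULK1, the kinase that starts autophagosome formation, is held back by the same complex. In epithelial cells these enzymes also degrade material taken up from outside.

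Promoter windows from RefSeq (GRCh38.p14, 250 bases before to 50 bases after the start site) were found for 32 of the 41 genes, and HEXA, NAGLU, SGSH, CTSB, PSAP, ASAH1, LAMP2, ATP6V1A and ATP6V1H are not included in what follows on promoters. The letters TCACGTG, searched on both strands (CACGTGA on the other), stood in 7 of the 32 genes (21.9%), against 4.49% of all 27305 symbols with a window and 3.71% of all 35116 windows of that length. Of the other lysosome and autophagy genes described further on, 22 of 110 held them (20%). These windows of 30 bases around the match are shown because TFEB and TFE3 bind such letters, and capitals mark the match, on both strands where these overlap. GAA, MCOLN1 and CTSA held 2 matches each and LAMP1 held 6, of which both are shown for GAA and 1 for each of the other 3 genes. They lie at chr17:80101493-80101522 (GAA, plus strand, first match), chr17:80101538-80101567 (GAA, plus strand, second match), chr19:7522598-7522627 (MCOLN1, plus strand), chr20:45891298-45891327 (CTSA, plus strand), chr11:1763956-1763985 (CTSD, minus strand), chr13:113297199-113297228 (LAMP1, plus strand), chr6:31862930-31862959 (NEU1, minus strand) and chr16:67481199-67481228 (ATP6V0D1, minus strand), each read 5′ to 3′ on the strand of its gene.
GAA, first match: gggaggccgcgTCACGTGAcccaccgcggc
GAA, second match: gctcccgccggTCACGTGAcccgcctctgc
MCOLN1: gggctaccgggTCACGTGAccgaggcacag
CTSA: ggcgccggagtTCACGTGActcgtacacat
CTSD: ccggccgcgccCACGTGAccggtccgggtg
LAMP1: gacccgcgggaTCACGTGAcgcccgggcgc
NEU1: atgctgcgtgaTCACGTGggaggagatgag
ATP6V0D1: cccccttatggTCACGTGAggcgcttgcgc
A match is a description of letters and not a measured binding site. The log2 changes at 6 h of the 7 genes with the letters ranged from -0.0028 to 0.13 (median 0.037), and those of the 25 genes without them from -0.64 to 0.53 (median 0.0064). FUCA1, MAN2B2, PLAC8, TFEB and ULK1, whose log2 changes stood farthest from 0 at 6 h, were all among the 25 without the letters. Most of the 32 genes lacked them, and a range over 25 genes tends to be wider than a range over 7. Whether the letters go with a change was not tested.

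In every library TPM summed to almost the same total, so that the values keep nothing of each library's depth, and the precision of a value is judged here from the spread between replicates. Mitochondrially encoded genes made up 2.54 to 4.53% of the TPM of a library and ribosomal protein genes 11.9 to 14.03%. The epithelial identity of the line showed in 8 of 9 epithelial markers at a mean of at least 1 TPM. TP63 was below it, at 0.13 TPM at 3 h and 0.099 TPM at 6 h. KRT8 was the highest, at 6823 TPM at 3 h and 6878 TPM at 6 h. Markers of secretory cells summed to at most 0.0846 TPM at 3 h and were not listed at 6 h. The 7 leukocyte markers, of which CSF1R was the highest, summed to 5.35 to 12.3 TPM in any library. Fibroblast markers summed to 9.32 to 16.0 TPM, mostly COL1A1 (mean 12.4 TPM at 3 h and 12.9 TPM at 6 h). Endothelial markers summed to 2.89 to 5.61 TPM and ciliated markers to 2.52 to 4.90 TPM.

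The 41 genes together took 5737 to 6737 TPM of a library, which is 0.574 to 0.674% of the total. Levels spanned 672-fold between the highest and the lowest gene. CD63, a tetraspanin of late endosomes and lysosomes, was the highest at a mean of 2519 TPM over the 16 libraries, followed by PSAP, the precursor of the saposins that help to degrade sphingolipids, at 849 TPM, and CTSD, an aspartic protease, at 335 TPM. These 3 genes made up 58.9% of the TPM of the whole set. At the other end stood TFEB at 3.75 TPM, MCOLN1, a calcium channel of the lysosomal membrane, at 8.24 TPM, and NAGLU, an enzyme of heparan sulfate breakdown, at 10.4 TPM. The median gene of the set stood at the 80.9th percentile of all symbols tested at 3 h and at the 82.3rd at 6 h. Of the 40 pairs of neighbours in the order of mean levels, 5 had the higher gene above the lower one in all 16 libraries: CD63 over PSAP, PSAP over CTSD, GUSB over MAN2B1, TFE3 over NAGLU, and MCOLN1 over TFEB. The other 35 pairs overlapped in at least 1 library.

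**Figure D1:**
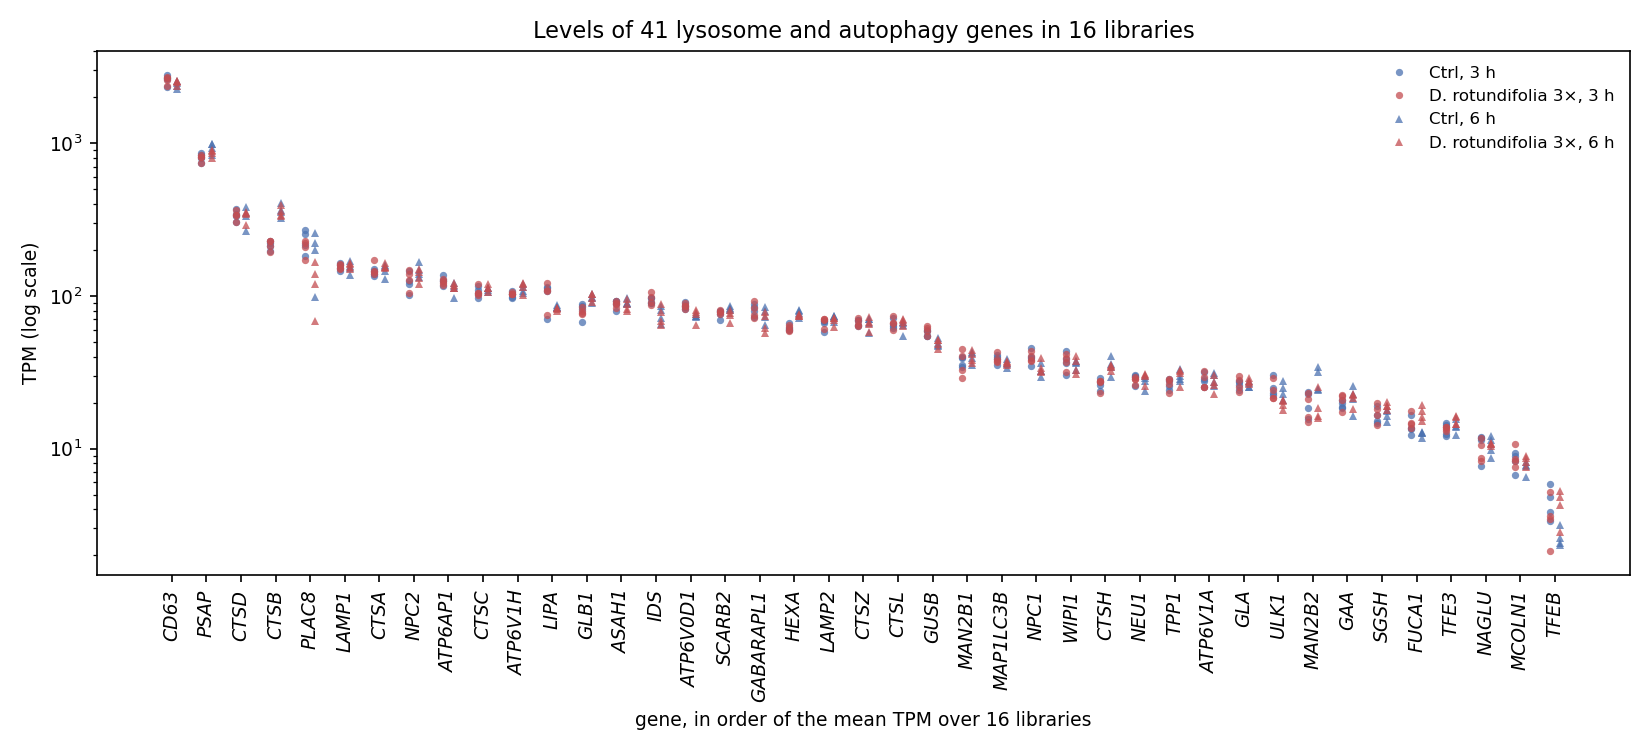
Levels of the 41 genes in TPM on a log axis, in order of their mean over the 16 libraries, with 1 point per library (circles 3 h, triangles 6 h, blue Ctrl, red *D. rotundifolia* 3×). CD63, at a mean of 2519 TPM, stands far above the rest and TFEB, at 3.75 TPM, is the lowest, while red and blue points of the same time lie on each other for most genes.

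Whether *D. rotundifolia* 3× moved these genes was asked at each time with limma on log2(TPM + 1), against the Ctrl of that time. At 3 h none of the 41 passed an adjusted p of 0.05, and none had an unadjusted p under 0.05. In this fit without a replicate term the background at 3 h was as empty, with 0 of 12919 symbols passing in either direction (0%). An unadjusted p under 0.05 was found for 311 (2.41%), 1.56% as higher and 0.844% as lower. With the replicate number in the model it was found for 888 (6.87%), and 1 symbol was called. Where a fit calls no symbol at all, the absence of a call does not show that a gene stayed unchanged. At 6 h again none of the 41 passed, and 5 had an unadjusted p under 0.05 (12.2%, against 1139 of 14179 symbols, 8.03%). FUCA1, SGSH and TFEB were the 3 with the higher mean in treated libraries (5.34% of all symbols) and MAN2B2 and ULK1 the 2 with the lower mean (2.69%). Over all symbols 16 passed as higher at 6 h (0.113%) and 0 as lower (0%), and this count of 16 lay between 2 and 44 when libraries were left out. The median log2 change of the 41 was 0.0049 at 3 h, where that of all symbols was 0.015, and 0.013 at 6 h, where that of all symbols was 0.0052. Both medians of the set were below 0 under another scaling (-0.017 at 3 h after median centring and -0.011 at 6 h after quantile normalisation), so that no direction can be given for the set. In bulk libraries less RNA per cell and fewer cells that express a gene cannot be told apart.

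How closely the set was bounded can be read from the 95% intervals of the log2 changes. At 3 h the interval lay within 0.4 either side of 0 for 36 of the 41 genes (87.8%, against 68.6% of all symbols), and at 6 h for 35 (85.4%, against 63.0%). The set lies high in level, and its median SE was 0.079 at 3 h and 0.082 at 6 h, against 0.11 and 0.10 over all symbols. These shares were not compared at matched levels. No gene had a log2 change beyond 0.4 at 3 h (2.77% of all symbols did). FUCA1, TFEB, MAN2B2 and PLAC8 were the 4 beyond it at 6 h, where 5.14% of all symbols were. Treated and Ctrl libraries did not overlap for 4 genes at 6 h. FUCA1 and SGSH had every treated library above every Ctrl library (4.88%, against 3.43% of all symbols), and SCARB2 and ULK1 had every treated library below (4.88%, against 1.65%). The groups overlapped at 3 h for all 41 genes, while 1.02% of all symbols were wholly above and 0.503% wholly below.

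**Figure D2:**
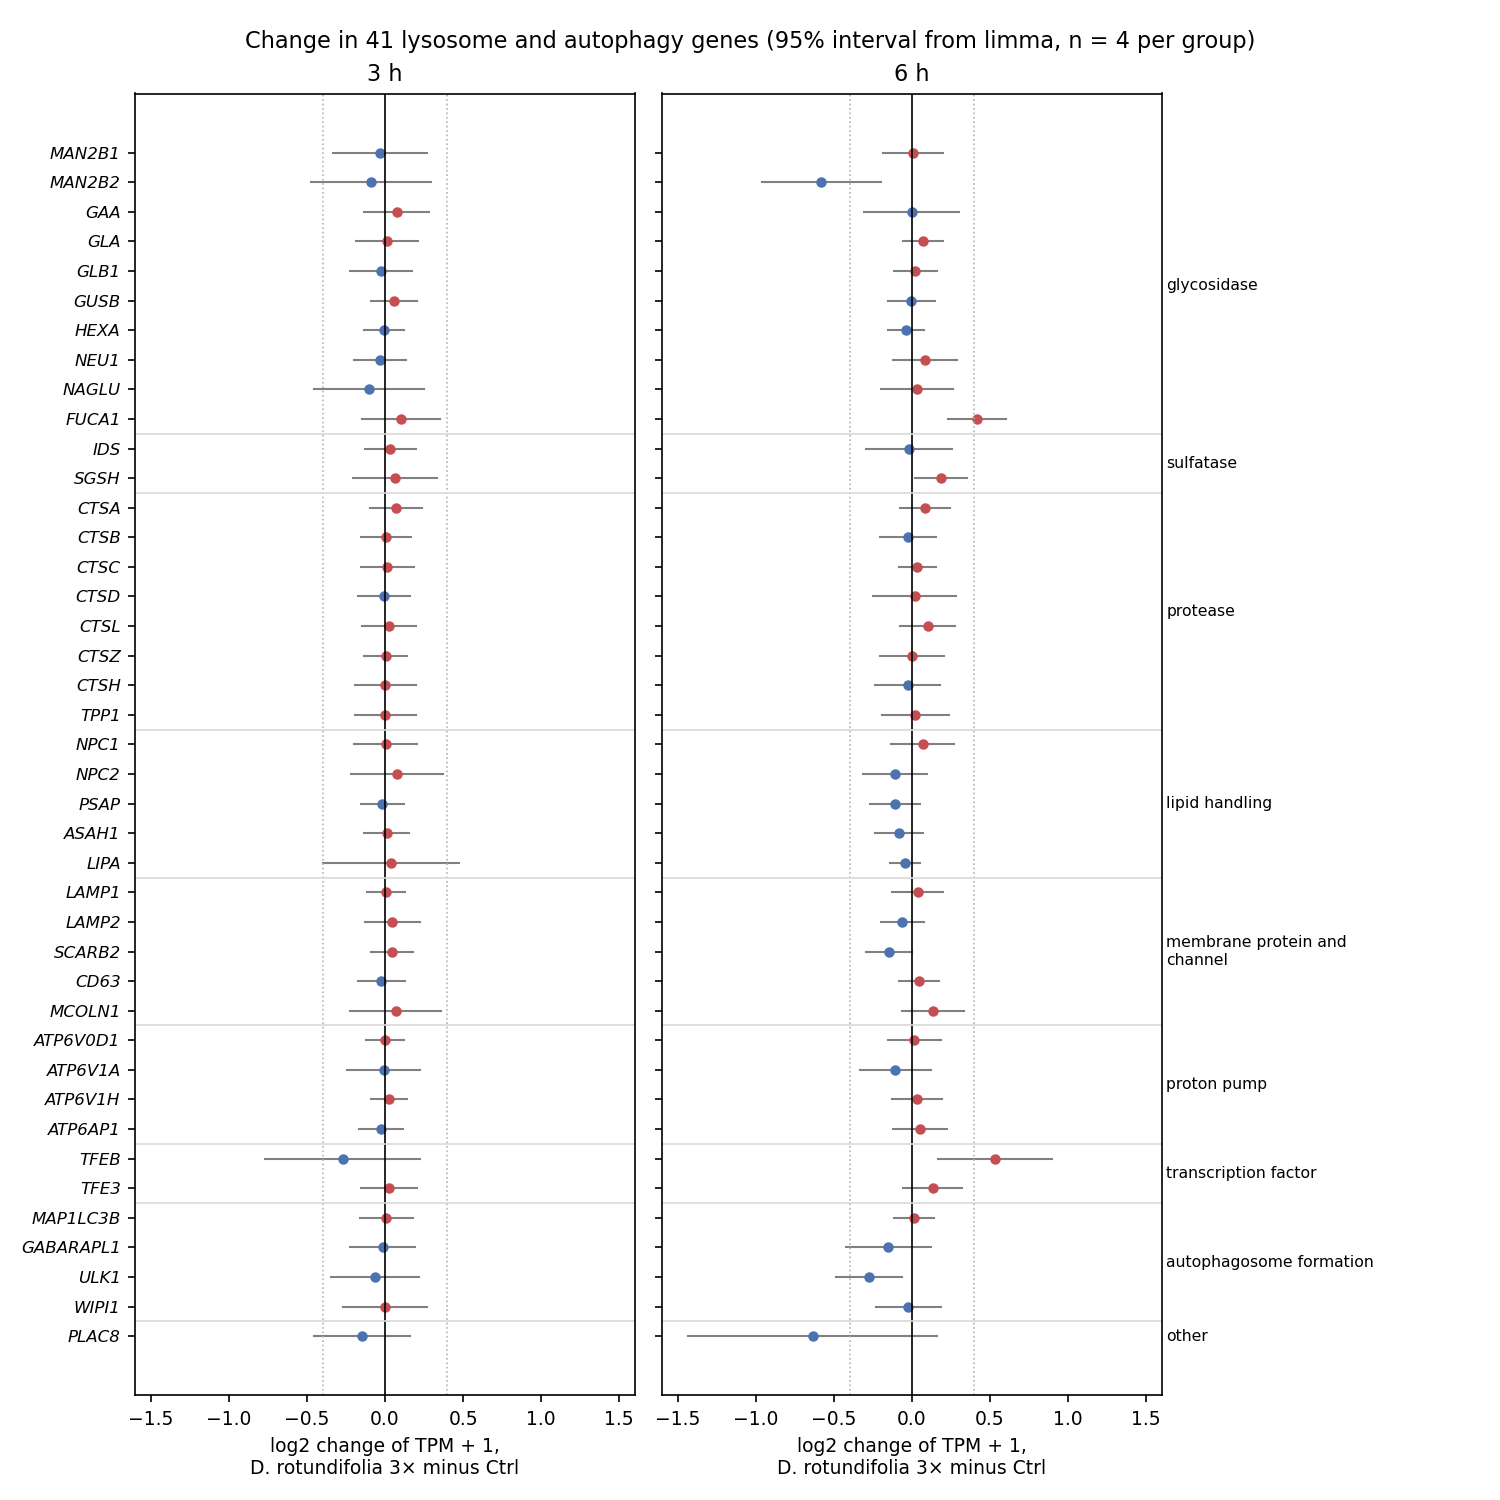
Log2 change of TPM + 1, *D. rotundifolia* 3× minus Ctrl, at 3 h and 6 h for the 41 genes in order of their roles, as the estimate (red above 0, blue below) with its 95% interval from limma, and dotted lines at 0.4 either side of 0. At 3 h all estimates lie within 0.4 of 0, and at 6 h MAN2B2, FUCA1, TFEB and PLAC8 lie beyond it, with the widest interval for PLAC8.

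The glycosidases cut sugars from glycoproteins, glycolipids and glycosaminoglycans, and 2 of the 10 stood apart at 6 h, in opposite directions. FUCA1 (ENSG00000179163, chr1:23845077-23868290, minus strand) removes fucose from glycans. In Ctrl at 6 h its levels were 11.6, 12.6, 12.7 and 12.9 TPM in replicates 1 to 4, the order used throughout, and in treated libraries 15.2, 17.5, 19.3 and 16.2 TPM. The treated libraries were all above the Ctrl libraries, which lay close together. Means were 12.5 ± 0.564 and 17.1 ± 1.76 TPM (SD, n = 4 each), and the log2 change was 0.42 ± 0.082 (SE, adjusted p = 0.169), the smallest adjusted p of the set and still short of the threshold. At 3 h FUCA1 measured 16.7, 12.3, 13.4 and 13.7 TPM in Ctrl and 17.5, 13.6, 14.6 and 14.5 TPM in treated libraries. These overlapped, with a log2 change of 0.10 ± 0.11 (SE, adjusted p = 1.0). The effect at 6 h minus that at 3 h was 0.32 ± 0.14 (SE, adjusted p = 0.999).

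MAN2B2 (ENSG00000013288, chr4:6575189-6623362, plus strand) is an α-mannosidase that trims the core of N-glycans. At 6 h it measured 31.5, 24.7, 34.2 and 24.1 TPM in Ctrl and 18.3, 16.2, 25.3 and 15.8 TPM in treated libraries. The only overlap between the groups came from treated replicate 3, which lay above Ctrl replicates 2 and 4. Group means were 28.6 ± 5.0 TPM in Ctrl and 18.9 ± 4.41 TPM with treatment (SD, n = 4 each). The log2 change was -0.58 ± 0.17 (SE, adjusted p = 0.408). In same-numbered libraries the treated to Ctrl ratio of MAN2B2 was 0.582, 0.656, 0.741 and 0.658. With the replicate number in the limma model the change was -0.58 ± 0.067 (SE, adjusted p = 0.0684). Whether the numbers pair the libraries at 6 h was left undecided. At 3 h the levels were 22.6, 23.4, 18.4 and 15.7 TPM in Ctrl and 21.1, 16.005, 14.97 and 23.2 TPM in treated libraries, fully mixed, with a log2 change of -0.091 ± 0.17 (SE, adjusted p = 1.0). The difference between the effects at the 2 times was -0.49 ± 0.25 (SE, adjusted p = 0.999). The Ctrl of the 2 experiments were themselves apart, as described further on, and the treated mean at 6 h was close to both means at 3 h.

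The other 8 glycosidases lay close to 0. Their log2 changes ran from -0.11 to 0.074 at 3 h and from -0.039 to 0.083 at 6 h. They include MAN2B1, the main lysosomal α-mannosidase, which measured 39.9 ± 3.48 TPM in Ctrl and 40.1 ± 3.35 TPM in treated libraries at 6 h. The log2 change of MAN2B1 was 0.0064 ± 0.084 (SE, adjusted p = 0.992), with a 95% interval of -0.19 to 0.20. GLB1, the lysosomal β-galactosidase, and HEXA, a subunit of β-hexosaminidase, had intervals of -0.12 to 0.16 and -0.16 to 0.078 at 6 h. NEU1, the lysosomal sialidase, stood on 5 gene IDs at 3 h, whose TPM were added, and on 1 ID at 6 h.

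Both sulfatases act on heparan sulfate. SGSH (ENSG00000181523, chr17:80206716-80220923, minus strand) measured 16.4, 17.8, 14.9 and 17.5 TPM in Ctrl at 6 h and 17.8, 20.3, 19.1 and 19.004 TPM in treated libraries. All treated libraries were above all Ctrl libraries, but by as little as the gap between Ctrl replicate 2 and treated replicate 1. The log2 change of SGSH was 0.19 ± 0.073 (SE, adjusted p = 0.575), from means of 16.7 ± 1.28 and 19.1 ± 1.02 TPM (SD, n = 4 each). At 3 h SGSH measured 16.6, 19.1, 15.2 and 14.7 TPM in Ctrl and 16.6, 18.3, 19.8 and 14.2 TPM with treatment, and the ranges overlapped (log2 change 0.065 ± 0.12 (SE, adjusted p = 1.0)). IDS (ENSG00000010404, chrX:149476988-149521096, minus strand), the iduronate sulfatase, has a near-identical pseudogene copy, so its level is uncertain. At 6 h IDS measured 80.8, 71.2, 86.3 and 65.5 TPM in Ctrl and 88.8, 68.6, 78.4 and 64.4 TPM in treated libraries, a log2 change of -0.021 ± 0.12 (SE, adjusted p = 0.982). Its 95% interval was -0.29 to 0.25. The 3 h values of IDS were 89.2, 97.3, 90.1 and 96.6 TPM in Ctrl and 98.5, 91.2, 87.01 and 106 TPM in treated libraries (0.034 ± 0.072 (SE, adjusted p = 1.0)).

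The proteases lay close to 0, with log2 changes of all 8 from -0.0092 to 0.068 at 3 h and from -0.028 to 0.10 at 6 h. Every one of the 16 intervals lay within 0.4 of 0. CTSL (ENSG00000135047, chr9:87724051-87731469, plus strand), a cysteine protease, had the smallest p of the group at 6 h. Its levels were 66.2, 67.5, 64.7 and 54.3 TPM in Ctrl and 67.3, 69.9, 70.2 and 63.1 TPM with treatment, overlapping in all but the lowest Ctrl library, with a log2 change of 0.10 ± 0.078 (SE, adjusted p = 0.804) that was 0.030 without Ctrl replicate 4. At 3 h CTSL measured 71.04, 65.5, 63.5 and 61.3 TPM in Ctrl and 73.4, 66.3, 66.8 and 59.5 TPM in treated libraries (0.023 ± 0.077 (SE, adjusted p = 1.0)). CTSA (ENSG00000064601, chr20:45890144-45898949, plus strand) is a carboxypeptidase that also shields GLB1 and NEU1 from degradation. At 6 h CTSA measured 158, 146, 157 and 129 TPM in Ctrl and 154, 154, 164 and 152 TPM in treated libraries, a log2 change of 0.085 ± 0.070 (SE, adjusted p = 0.815), and the treated values lay inside the Ctrl range except for the highest. Without Ctrl replicate 4 that change was 0.024. The 3 h levels of CTSA were 144, 149.8, 134 and 139.6 TPM in Ctrl and 138, 170.3, 145 and 144 TPM with treatment (0.068 ± 0.073 (SE, adjusted p = 1.0)). CTSD, the highest of the group, measured 332 ± 50.4 TPM in Ctrl and 334 ± 28.7 TPM in treated libraries at 6 h (SD, n = 4 each).

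Among the genes of lipid handling, PSAP (ENSG00000197746, chr10:71816298-71851251, minus strand) had the highest level and the smallest p at 6 h. It measured 979, 934, 982 and 829 TPM in Ctrl and 904, 859, 892 and 799 TPM in treated libraries. The ranges overlapped through Ctrl replicate 4, the lowest of the Ctrl libraries. The log2 change was -0.11 ± 0.070 (SE, adjusted p = 0.749) at 6 h, with means of 931 ± 71.3 and 864 ± 46.8 TPM (SD, n = 4 each). At 3 h PSAP measured 738, 857, 795 and 836 TPM in Ctrl and 739, 829, 804 and 813 TPM in treated libraries, a log2 change of -0.017 ± 0.060 (SE, adjusted p = 1.0). ASAH1 (ENSG00000104763, chr8:18055992-18084998, minus strand) is the acid ceramidase. At 6 h it measured 89.2, 97.3, 90.2 and 88.8 TPM in Ctrl and 88.04, 95.3, 81.8 and 79.9 TPM with treatment (-0.084 ± 0.067 (SE, adjusted p = 0.805)), the highest value of both groups being in replicate 2. The 3 h levels of ASAH1 were 80.1, 91.9, 91.9 and 87.8 TPM in Ctrl and 82.9, 89.4, 88.98 and 93.04 TPM in treated libraries (0.012 ± 0.064 (SE, adjusted p = 1.0)). NPC1 and NPC2, which hand cholesterol out of the lysosome, and LIPA, the acid lipase, had log2 changes of 0.068, -0.11 and -0.044 at 6 h. LIPA was unusual in its spread, with 101 ± 20.7 TPM in Ctrl at 3 h and 84.6 ± 1.42 TPM in Ctrl at 6 h (SD, n = 4 each), and its 95% interval was -0.40 to 0.47 at 3 h and -0.14 to 0.052 at 6 h. At 3 h replicate 1 was the lowest of both groups, at 70.1 TPM in Ctrl and 74.5 TPM with treatment. With the replicate number in the model the interval of LIPA at 3 h was -0.057 to 0.13.

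The lysosomal membrane carries LAMP1 and LAMP2, its most abundant glycoproteins, together with SCARB2, CD63 and MCOLN1. SCARB2 (ENSG00000138760, chr4:76158737-76234536, minus strand) is the receptor that brings glucocerebrosidase to the lysosome. At 6 h it measured 81.8, 85.97, 83.1 and 80.8 TPM in Ctrl and 80.7, 75.1, 77.5 and 66.7 TPM in treated libraries. All treated libraries were below all Ctrl libraries, although treated replicate 1 and Ctrl replicate 4 were almost level. The log2 change of SCARB2 was -0.15 ± 0.065 (SE, adjusted p = 0.622), from 82.9 ± 2.25 to 75.01 ± 5.98 TPM (SD, n = 4 each), and without treated replicate 4 it was -0.092. At 3 h the levels were 69.01, 76.5, 79.2 and 79.7 TPM in Ctrl and 80.1, 78.05, 76.3 and 78.9 TPM in treated libraries (0.044 ± 0.059 (SE, adjusted p = 1.0)), and the effect at 6 h minus that at 3 h was -0.19 ± 0.086 (SE, adjusted p = 0.999). MCOLN1 (ENSG00000090674, chr19:7522624-7534009, plus strand), with the CLEAR letters shown above, measured 7.77, 7.69, 8.12 and 6.49 TPM in Ctrl and 8.14, 7.60, 8.89 and 8.71 TPM in treated libraries at 6 h. These overlapped, with a log2 change of 0.13 ± 0.087 (SE, adjusted p = 0.748). For MCOLN1 at 3 h the values were 8.29, 8.89, 9.40 and 6.70 TPM in Ctrl and 7.58, 8.57, 10.7 and 8.28 TPM with treatment (0.069 ± 0.13 (SE, adjusted p = 1.0)). LAMP1, LAMP2 and CD63 had 95% intervals of -0.13 to 0.20, -0.20 to 0.078 and -0.082 to 0.17 at 6 h, narrow around 0.

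The vacuolar ATPase pumps protons into the lysosome. ATP6V1A (ENSG00000114573, chr3:113746770-113812056, plus strand), its catalytic subunit, measured 30.4, 31.4, 27.1 and 25.6 TPM in Ctrl and 25.99, 30.3, 27.1 and 22.8 TPM in treated libraries at 6 h. The groups overlapped and the log2 change was -0.11 ± 0.10 (SE, adjusted p = 0.836). At 3 h ATP6V1A measured 25.2, 28.3, 31.7 and 27.5 TPM in Ctrl and 25.1, 25.3, 29.5 and 32.3 TPM in treated libraries (-0.0091 ± 0.10 (SE, adjusted p = 1.0)). ATP6AP1 (ENSG00000071553, chrX:154428633-154436516, plus strand), an accessory subunit, measured 121, 113, 117 and 96.3 TPM in Ctrl and 112, 122, 117 and 112 TPM with treatment at 6 h (0.052 ± 0.076 (SE, adjusted p = 0.892)), with the single low value in Ctrl replicate 4. The 3 h values of ATP6AP1 were 115, 137, 125 and 127 TPM in Ctrl and 122, 129, 125 and 118 TPM in treated libraries (-0.024 ± 0.062 (SE, adjusted p = 1.0)). ATP6V0D1 and ATP6V1H, subunits of the membrane sector and of the cytosolic sector, had log2 changes of 0.014 and 0.031 at 6 h.

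The transcription factors that drive this programme differed in level and in spread. TFEB (ENSG00000112561, chr6:41683978-41736259, minus strand) measured 2.33, 2.61, 3.17 and 2.40 TPM in Ctrl and 4.79, 2.84, 5.30 and 4.30 TPM in treated libraries at 6 h. Of the treated libraries, 3 lay above every Ctrl library, and treated replicate 2 lay inside the Ctrl range. Means of 2.63 ± 0.383 and 4.31 ± 1.06 TPM (SD, n = 4 each) gave a log2 change of 0.53 ± 0.16 (SE, adjusted p = 0.437), the highest of the set. At 3 h TFEB measured 3.85, 4.84, 3.35 and 5.86 TPM in Ctrl and 3.63, 3.45, 2.13 and 5.18 TPM in treated libraries, and here the treated mean was the lower one, with a log2 change of -0.27 ± 0.22 (SE, adjusted p = 1.0). The effect at 6 h minus that at 3 h was 0.80 ± 0.28 (SE, adjusted p = 0.999), the largest of the set, and it did not pass the threshold. With a mean normalised count of 143 at 3 h and 147 at 6 h, TFEB was also the gene of the set with the fewest reads, against a median of 2612 at 3 h and 2571 at 6 h. TFE3 (ENSG00000068323, chrX:49028726-49043410, minus strand) measured 13.9, 15.6, 14.04 and 12.3 TPM in Ctrl and 16.3, 14.5, 16.2 and 14.6 TPM in treated libraries at 6 h, with overlapping ranges and a log2 change of 0.13 ± 0.083 (SE, adjusted p = 0.735). The 3 h values of TFE3 were 14.7, 14.2, 12.5 and 12.2 TPM in Ctrl and 13.1, 13.9, 13.4 and 13.9 TPM with treatment (0.024 ± 0.079 (SE, adjusted p = 1.0)).

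**Figure D3:**
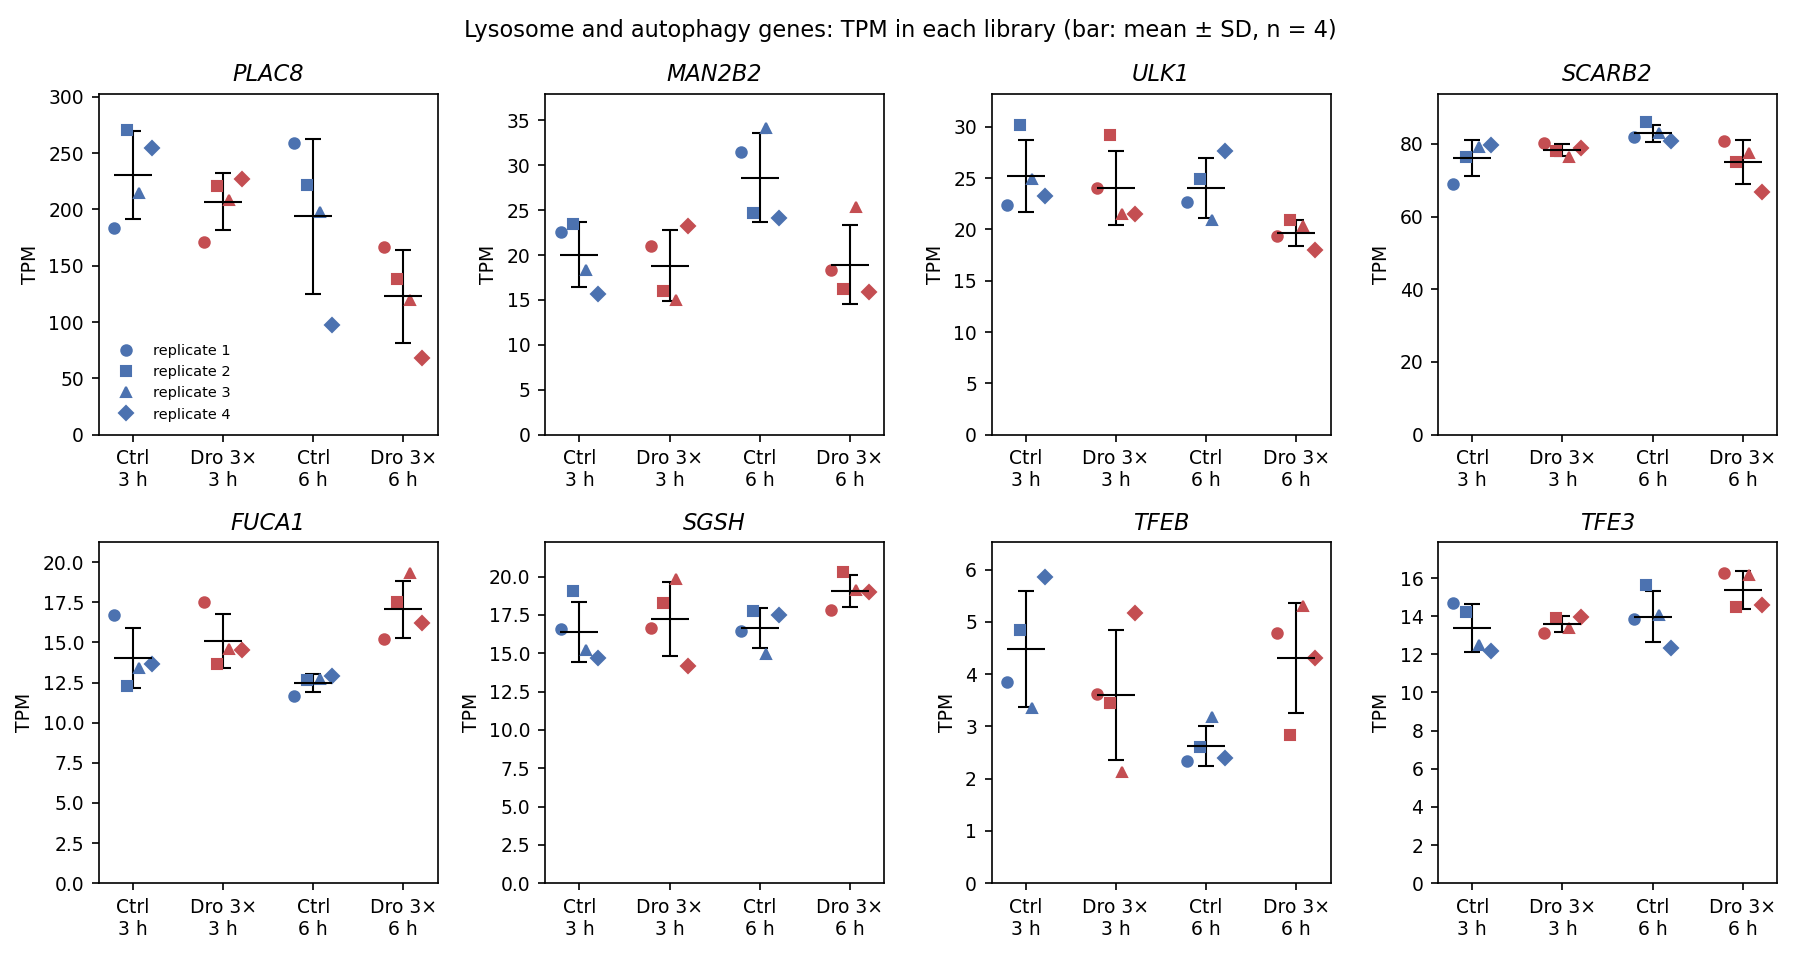
TPM in each library for 8 of the genes, by group and time, with replicates 1 to 4 as marker shapes and the mean ± SD of the 4 libraries as black bars. At 6 h the treated libraries of FUCA1 and SGSH all lie above Ctrl and those of ULK1 and SCARB2 all lie below, while PLAC8 overlaps between groups because replicate 4 is the lowest library in both.

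Of the genes that form autophagosomes, ULK1 (ENSG00000177169, chr12:131894622-131923150, plus strand) was the 1 with separated groups at 6 h. It measured 22.7, 24.9, 20.9 and 27.6 TPM in Ctrl and 19.4, 20.9, 20.3 and 17.9 TPM in treated libraries. The highest treated library, replicate 2, lay just under the lowest Ctrl library, replicate 3. Means were 24.04 ± 2.88 and 19.7 ± 1.30 TPM (SD, n = 4 each) and the log2 change was -0.27 ± 0.092 (SE, adjusted p = 0.508). At 3 h ULK1 measured 22.3, 30.2, 24.9 and 23.3 TPM in Ctrl and 24.03, 29.2, 21.5 and 21.5 TPM with treatment, with both highest values in replicate 2 and a log2 change of -0.064 ± 0.12 (SE, adjusted p = 1.0). GABARAPL1 (ENSG00000139112, chr12:10212458-10223128, plus strand), of the family of proteins joined to lipid in the growing membrane, measured 64.6, 84.2, 72.7 and 79.1 TPM in Ctrl and 78.4, 61.7, 74.1 and 56.998 TPM in treated libraries at 6 h. These were mixed, with a log2 change of -0.15 ± 0.12 (SE, adjusted p = 0.806). The 3 h values of GABARAPL1 were 72.6, 88.5, 85.1 and 79.2 TPM in Ctrl and 72.1, 92.01, 82.9 and 75.4 TPM in treated libraries (-0.015 ± 0.093 (SE, adjusted p = 1.0)). MAP1LC3B, of the same family and close in sequence to MAP1LC3B2 and therefore uncertain, and WIPI1, a phosphoinositide-binding protein of the early autophagosome, had log2 changes of 0.013 and -0.023 at 6 h.

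PLAC8 (ENSG00000145287, chr4:83090048-83137075, minus strand), a small cysteine-rich protein that has been tied to the fusion of autophagosomes with lysosomes, had the lowest log2 change of the set at 6 h and the widest interval. It measured 259, 222, 198 and 97.5 TPM in Ctrl and 166, 138, 119 and 68.1 TPM in treated libraries. Replicate 4 was the lowest of both groups and replicate 1 the highest of both, and the groups overlapped because Ctrl replicate 4 lay below 3 of the treated libraries. The means were 194 ± 68.996 and 123 ± 41.4 TPM (SD, n = 4 each), and the log2 change was -0.64 ± 0.35 (SE, adjusted p = 0.698), with a 95% interval of -1.44 to 0.16. Without treated replicate 4 it was -0.38. PLAC8 passed the threshold at 6 h only where the replicate number entered the limma model (-0.64 ± 0.047, SE, adjusted p = 0.034). Its treated to Ctrl ratio was 0.643, 0.623, 0.603 and 0.699 in same-numbered libraries. The numbers at 6 h did not all meet the bound set for pairs, so pairing was left undecided. At 3 h PLAC8 measured 183, 270.4, 214 and 255 TPM in Ctrl and 171, 221, 209 and 227 TPM in treated libraries. Replicate 1 was then the lowest of both groups, and the log2 change was -0.15 ± 0.14 (SE, adjusted p = 1.0). The effect at 6 h minus that at 3 h was -0.49 ± 0.40 (SE, adjusted p = 0.999). With the replicate number in the limma model this difference was -0.49 ± 0.068 (SE, adjusted p = 0.0379).

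At 3 h libraries of the same number deviated together, and when the number entered the model as a block 1 of 12919 symbols was called (0.00774%) in place of 0. None of the 41 genes was called in it, and 2 had an unadjusted p under 0.05 (888 symbols, 6.87%, did), which were TFEB (adjusted p = 0.694) and PLAC8 (adjusted p = 0.677), both with the lower level in the treated library of each number. Unless stated, the errors, intervals and adjusted p of single genes at 3 h and at 6 h are from the fit without the block. With the block the SE at 3 h fell from 0.22 to 0.093 for TFEB and from 0.14 to 0.047 for PLAC8. For MAN2B2 the SE at 3 h was 0.17 without the block and 0.18 with it, and at 6 h 0.17 and 0.067.

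The response at 6 h was set against that at 3 h through the difference of the effects over all 16 libraries. None of the 41 genes was called in this limma test, while 1 of 12623 symbols was called as higher (0.00792%) and 0 as lower (0%). An unadjusted p under 0.05 was found for TFEB, FUCA1 and SCARB2 (7.32%, against 3.49% of all symbols, 1.92% with the higher and 1.58% with the lower effect at 6 h). The sign of the log2 change was the same at both times for 22 of the 41 genes, and for 6578 of 12313 symbols. Across the 41 genes the correlation of the changes at the 2 times was r = 0.14 (Spearman's rho 0.18). It is a description across genes, which are not independent replicates.

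The 2 experiments also differed in Ctrl alone, which is described without a test, because the time and the experiment cannot be told apart and the tables were made separately. Among the 41 genes, 6 had all Ctrl libraries at 6 h above all Ctrl libraries at 3 h, and 4 had all below. The same counts were not made over all symbols, so these cannot be read as particular to the set. CTSB, a cysteine protease and the fourth highest gene of the set, measured 215 ± 13.4 TPM at 3 h and 362 ± 33.03 TPM at 6 h in Ctrl (SD, n = 4 each), a ratio of 1.68. MAN2B2 followed at 20.03 ± 3.63 TPM at 3 h and 28.6 ± 5.0 TPM at 6 h (ratio 1.43), then CTSH (ratio 1.32), HEXA (1.24), GLB1 (1.20) and SCARB2 (1.09). The 4 genes below were TFEB, at 4.47 ± 1.11 TPM at 3 h and 2.63 ± 0.383 TPM at 6 h (ratio 0.587), IDS (0.814), ATP6V0D1 (0.859) and GUSB (0.86). The median ratio of the 41 genes was 0.989, and 19 had the higher Ctrl mean at 6 h. For MAN2B2 the Ctrl mean at 6 h was thus above both means at 3 h while the treated mean at 6 h lay between them, and for TFEB the Ctrl mean at 6 h was below both means at 3 h and the treated mean at 6 h lay between them.

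The wider pathway was looked at through 141 further genes in 7 lists: other hydrolases, other membrane proteins and transporters, the sorting machinery of lysosomal enzymes, other V-ATPase subunits, other autophagy genes, autophagy receptors, and the MiT/TFE factors with the lysosomal control of mTORC1. Of these 139 were listed and 137 tested at each time. None was called at 3 h or at 6 h with limma, and 5 had an unadjusted p under 0.05 at 3 h (3.65%, against 2.41% of all symbols) and 9 at 6 h (6.57%, against 8.03%). The median log2 change over the 137 was 0.015 at 3 h and -0.010 at 6 h, and 107 had a 95% interval within 0.4 of 0 at 6 h (78.1%, against 63.0%). Levels were not matched in that comparison either.

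In each list the gene with the smallest p at 6 h is given here, and none passed the threshold. Of the 137 genes, 2 had every treated library above every Ctrl library at 6 h (1.46%, against 3.43% of all symbols). For 3 every treated library lay below (2.19%, against 1.65%). SIDT2, a lysosomal membrane protein tied to the uptake of nucleic acids, measured 4.59, 4.31, 4.59 and 4.68 TPM in Ctrl and 7.27, 6.02, 5.19 and 8.01 TPM in treated libraries. The groups were fully separated, with a log2 change of 0.45 ± 0.12 (SE, adjusted p = 0.361). M6PR, the receptor that carries enzymes with the mannose-6-phosphate tag from the Golgi, was also separated, but barely. Its lowest treated library, replicate 2, measured 365.7 TPM and its highest Ctrl library, replicate 3, 365.4 TPM. Means were 345 ± 16.8 TPM in Ctrl and 383 ± 20.6 TPM in treated libraries (SD, n = 4 each). The log2 change of M6PR was 0.15 ± 0.057 (SE, adjusted p = 0.556). MITF, a relative of TFEB and TFE3, measured 2.80, 2.62, 3.86 and 3.93 TPM in Ctrl and 2.55, 2.29, 2.26 and 1.86 TPM in treated libraries. All treated libraries were below all Ctrl libraries for MITF, though treated replicate 1 lay just under Ctrl replicate 2. The log2 change of MITF was -0.40 ± 0.13 (SE, adjusted p = 0.488), at a low level near that of TFEB. NBR1, a receptor that links ubiquitin-tagged cargo to the autophagosome, measured 37.6, 37.99, 44.6 and 36.1 TPM in Ctrl and 35.5, 33.8, 29.99 and 32.7 TPM in treated libraries, also separated, with a log2 change of -0.24 ± 0.082 (SE, adjusted p = 0.516). ATG101, of the ULK1 complex, had a log2 change of 0.30 ± 0.11 (SE, adjusted p = 0.569), ATP6V0C, the proteolipid ring subunit of the proton pump, 0.19 ± 0.090 (SE, adjusted p = 0.647), and GM2A, the activator of ganglioside breakdown, -0.16 ± 0.075 (SE, adjusted p = 0.66).

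BNIP3, a receptor of mitophagy that the study also names, was chosen here after its values were seen, since it had the lowest log2 change of all 7 lists at 6 h. It measured 52.5, 46.98, 42.2 and 24.98 TPM in Ctrl and 40.2, 30.3, 26.1 and 13.7 TPM in treated libraries. As for PLAC8, replicate 4 was the lowest and replicate 1 the highest in both groups, and the groups overlapped. Within each number the treated library was below the Ctrl library. The log2 change of BNIP3 was -0.62 ± 0.33 (SE, adjusted p = 0.688). With the replicate number in the limma model no autophagy receptor was called at 6 h (smallest adjusted p = 0.0917).

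**Figure D4:**
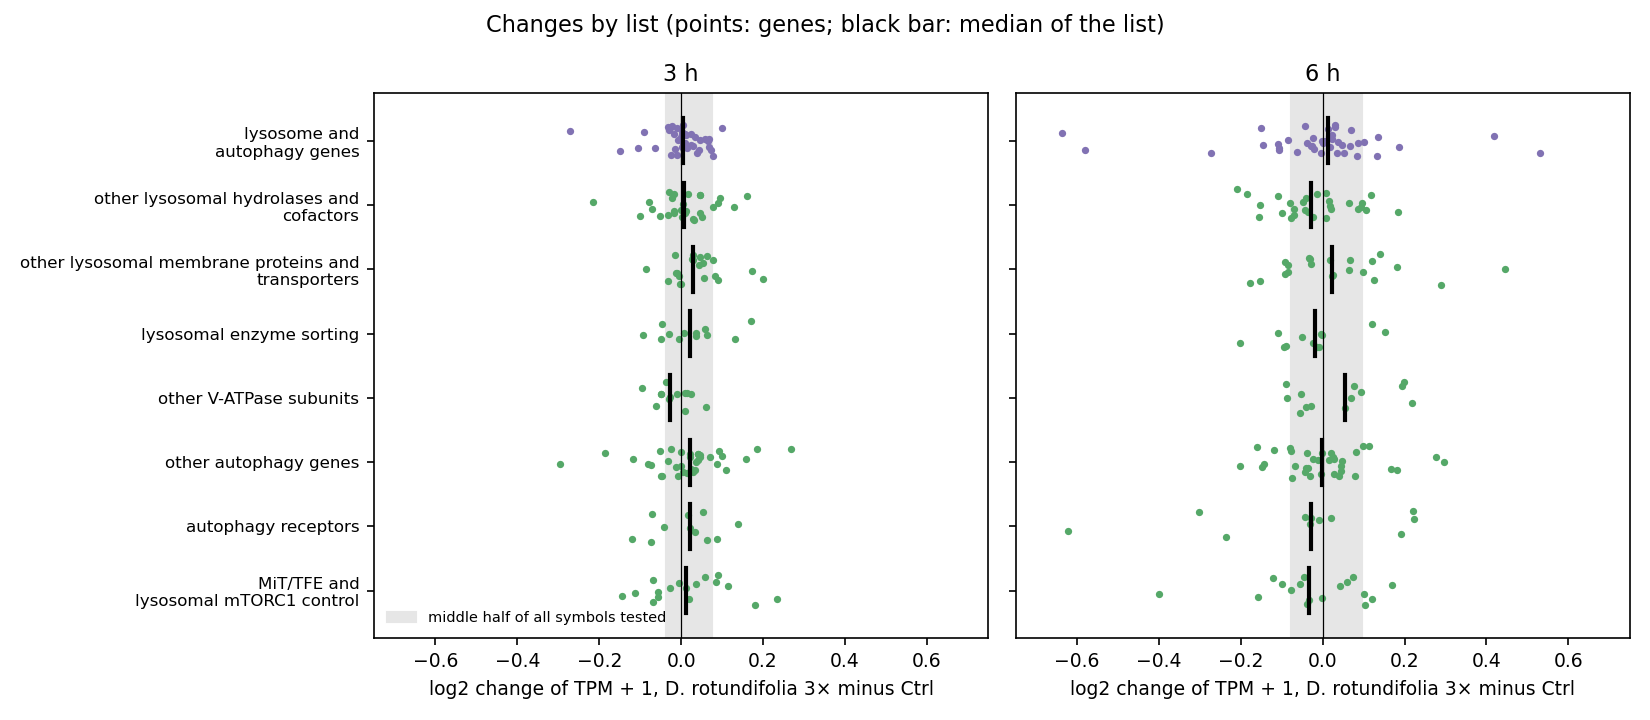
Log2 change of TPM + 1, *D. rotundifolia* 3× minus Ctrl, for each gene (points) of the 41 and of the 7 further lists, at 3 h and 6 h, with the median of each list as a black bar and the range that holds the middle of all symbols, from the lower to the upper quartile, in grey. All medians lie close to 0, that of the 41 genes at 0.0049 at 3 h and 0.013 at 6 h, and the points farthest out at 6 h are PLAC8, BNIP3, MAN2B2, TFEB, SIDT2 and FUCA1.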

How the data were processed

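RNA-seq libraries of 16HBE cells were sorted into groups from their labels (time, treatment), with 4 libraries per group. The authors isolated poly(A) RNA, made stranded libraries, sequenced single ends, quantified transcripts of GENCODE 32 with Salmon 0.13.1 with GC-bias correction, summed them to genes with tximport and discarded genes with few reads. The authors tested counts with DESeq2 1.22.2. In 1 table per time the authors deposited TPM per gene and library, and a signal, the mean of the normalised counts over the libraries. Depth per library is not in the tables, and TPM keep none of it. The deposited columns of the authors' own comparison (log2 fold change with its standard error, a score and p-values) were not used. Repeated rows (89 at 6 h) were dropped.

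TPM of the gene IDs of a symbol were added, and log2(TPM + 1) was tested for symbols that averaged 1 TPM or more in the libraries fitted, with limma 3.58.1 in R 4.3.3 (eBayes with trend, two-sided, Benjamini-Hochberg over all symbols, threshold 0.05). Each time was fitted alone, and the difference between times as an interaction over 16 libraries. Changes are on the log2(TPM + 1) scale, which understates those of low genes. The fits were tested on simulated data. Whether replicate numbers pair the libraries was checked from the correlation of residuals of same-numbered libraries, with a bound of 0.1. At 3 h it was 0.469, 0.255, 0.219 and 0.187, so the numbers were taken as pairs. The study's test names no replicate term, so none was in the main fit. At 3 h its errors therefore leave the pairing out, and the fit with the block is described separately.

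The 41 genes, the roles and the further lists were chosen with earlier results of these data known, so no list was tested as a whole. Genes given in full were those called in any fit, PLAC8 and MAN2B2, which the study names, and up to 2 genes per role with the smallest p at 6 h. The 3 highest and the 3 lowest in level were named with their levels. Of a further list, the gene with the smallest p at 6 h is given. Alternatives were the replicate block, pseudocounts of 0.1 and 0.5, no filter and a filter of 5 TPM, no trend, quantile normalisation, median centring, TPM without mitochondrially encoded and ribosomal protein genes, single gene IDs, and leaving out libraries. Coordinates are those of GENCODE 44 on GRCh38, and promoter windows are from RefSeq on GRCh38.p14. Summaries were computed in Python 3.11.15 (pandas 2.3.3, numpy 2.4.6) and plotted with matplotlib 3.10.9.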

Additional observations from a re-analysis of the deposited data

Results flagged for a closer look

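Of 68 groups of 4 libraries examined, 4 for each of the 17 genes given in full, 1 had a library far from the others, where chance alone is set to give about 1 in 20. It was ASAH1, the acid ceramidase, in Ctrl at 6 h. Replicate 2 measured 97.3 TPM, and the other Ctrl libraries lay between 88.8 and 90.2 TPM, so that the gap took 0.835 of the range of the group, past Dixon's 95% critical value. Treated replicate 2 was also the highest of its group at 6 h, at 95.3 TPM.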

How the results depend on the processing

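None of the 41 genes was called at 3 h under any alternative run, and at 6 h and in the difference between times none was called except PLAC8 under the replicate block. Adding the number as a block at 6 h gave 38 symbols called higher and 2 called lower in place of 16 and 0. An unadjusted p under 0.05 was then found for 8 of the 41 genes in place of 5. Over all symbols it was found for 1854 of 14179 in place of 1139. The block called 1 of the 41 as lower, PLAC8 (log2 change -0.64 ± 0.047, SE, adjusted p = 0.034), whose treated to Ctrl ratio was 0.643, 0.623, 0.603 and 0.699 in same-numbered libraries. MAN2B2 had an adjusted p of 0.0684 and FUCA1 of 0.125 with the block. In the difference between times the block called 30 symbols as higher and 2 as lower in place of 1 and 0, with 1 of the 41 as lower, PLAC8 (-0.49 ± 0.068, SE, adjusted p = 0.0379). At 6 h same-numbered residuals correlated at 0.0564, 0.0973, 0.158 and 0.204, so that 2 of 4 passed the bound of 0.1 and 6 of 8 libraries correlated best with their own number. The bound was not met by all 4 numbers, so pairing at 6 h was left undecided. The fit without the block is the one given for single genes in the Results. The study kept Ctrl and treated cultures on shared plates, but the labels do not tie a replicate number to a plate. For its quantitative PCR over a time course that included 6 h, the study refers to statistics for paired data. If the numbers do pair the libraries at 6 h, the errors without the block leave that pairing out. At 3 h the block gave 1 symbol called higher in place of 0 and changed no call among the 41. In a fit added after seeing the data, the block together with leaving out both libraries of any number at 6 h called 0 symbols as higher and none of the 41, with 1 symbol called lower without number 2. The log2 change of PLAC8 was -0.68 to -0.61 in these 4 fits of 3 pairs each (adjusted p = 0.0971 to 0.211).

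Without a filter on low values 7 symbols were called higher at 6 h. With each gene ID alone 1 symbol was called higher at 3 h and 2 in the difference between times. The 16 symbols called higher at 6 h became 5, 10, 8 and 8 without Ctrl replicates 1 to 4, 44, 4, 4 and 7 without treated replicates 1 to 4, and 23, 3, 4 and 2 without both libraries of numbers 1 to 4, a range of 2 to 44. Leaving out libraries gave 0 to 3 called lower at 6 h, 0 to 1 higher and 0 to 2 lower at 3 h, and 0 to 1 higher and 0 to 1 lower in the difference between times. The cause was not tested, beyond the fewer libraries in each fit.

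The log2 changes of PLAC8, MAN2B2, FUCA1, TFEB, ULK1, SGSH and SCARB2 at 6 h kept their direction under all alternatives run. Those of PLAC8 ranged from -0.94 to -0.38, of MAN2B2 from -0.72 to -0.49 and of TFEB from 0.44 to 0.68 as libraries were left out. Ranges with libraries left out were also wide at 6 h for ULK1 -0.35 to -0.17, SCARB2 -0.19 to -0.092, CTSL 0.030 to 0.13, CTSA 0.024 to 0.13, PSAP -0.16 to -0.070, ASAH1 -0.13 to -0.049, MCOLN1 0.054 to 0.18, ATP6V1A -0.17 to -0.038, TFE3 0.078 to 0.21, GABARAPL1 -0.29 to -0.047. Values near 0 crossed it, none of them with an adjusted p under 0.05. At 3 h the ranges with libraries left out were ASAH1 -0.032 to 0.043, SCARB2 -0.013 to 0.076, PSAP -0.059 to 0.018, ATP6AP1 -0.066 to 0.015, ULK1 -0.16 to 0.023, GABARAPL1 -0.080 to 0.036, ATP6V1A -0.087 to 0.048, TFE3 -0.029 to 0.082, CTSL -0.024 to 0.075, MCOLN1 -0.020 to 0.13, MAN2B2 -0.30 to 0.053, SGSH -0.035 to 0.15, IDS -0.017 to 0.078. At 6 h they were IDS -0.10 to 0.048 and ATP6AP1 -0.017 to 0.11, and in the difference between times CTSA -0.043 to 0.082, IDS -0.14 to 0.015, MCOLN1 -0.016 to 0.15. Median centring gave ASAH1 at -0.010 at 3 h. Depth is unknown per library, and TFEB had the fewest reads of the 41.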
